A study of Mus musculus with 4 samples.

Results

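A set of 10 antioxidant genes was followed in kidneys of pristane-injected mice with and without Zbp1: the glutathione peroxidases Gpx1, Gpx3 and Gpx4, catalase (Cat), the superoxide dismutases Sod1 and Sod2, the transcription factor Nrf2 (Nfe2l2), and its targets Hmox1, Nqo1 and Gclc. They were chosen by name, with earlier results of these data known, and make up 10 of the 54532 genes in the count tables. All 10 were expressed and tested. In each, the larger gap between replicates exceeded the difference between the genotype means, as in 78.1% of all genes tested. Gpx3 took more of the non-mitochondrial counts than any other gene in 3 of the 4 libraries.

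Superoxide dismutases convert superoxide into hydrogen peroxide, and catalase and the glutathione peroxidases then remove the peroxide. Gpx1, Gpx3 and Gpx4 carry selenocysteine in the active site and draw electrons from glutathione, whose synthesis begins with the ligase that Gclc encodes. Under oxidative or electrophilic stress Nrf2 escapes from its inhibitor Keap1, enters the nucleus and binds antioxidant response elements near genes such as Nqo1, Hmox1 and Gclc. In the kidney, proximal tubule cells make the secreted peroxidase Gpx3, which reaches the blood plasma.

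The study asked how loss of Zbp1, a sensor of Z-form nucleic acids, alters kidney gene expression in lupus-like disease. Wild-type (WT) mice and mice whose Zbp1 exons 2 to 8 had been removed with CRISPR-Cas9 (Zbp1-KO), both on the C57BL/6J background, were injected intraperitoneally when 8 weeks old with 500 µL of pristane, a mineral oil component used to provoke lupus-like disease. Kidneys were taken 8 months later, and polyadenylated RNA was sequenced in 2 libraries per genotype. The study describes the mice of this experiment as female, while the sample titles do not give the sex. All 4 libraries came from pristane-injected mice, so no value below compares pristane with its absence.

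Total counts were 9878776 to 12921925 per library, of which 49.5% to 61.5% fell on mitochondrially encoded genes, leaving 4003417 to 5782924 for all other genes. Zbp1 counts were 94 and 125 in WT but 18 and 0 in Zbp1-KO, in the direction of the labels. All 10 markers of the proximal tubule, the most abundant tubule segment of the kidney, had counts in every library. Over the 14908 genes tested, 2 genes (0.0134%), Cfd and Lars2, passed an adjusted p under 0.05 in the edgeR quasi-likelihood test, both higher in Zbp1-KO (with all genes of at least 1 count, 14 were higher and 27 lower). An unadjusted p under 0.05 was reached by 578 genes (3.88%), and for 4810 genes (32.3%) both Zbp1-KO values lay to 1 side of both WT values. The summed levels of 4 marker lists separated the genotypes: adipocyte markers summed to 86.0 and 111 CPM in WT against 235 and 198 CPM in Zbp1-KO, and immediate-early genes to 654 and 257 CPM against 147 and 157 CPM. Podocyte markers summed to 102 and 104 CPM in WT against 129 and 150 CPM in Zbp1-KO, and T cell markers to 13.1 and 6.76 CPM against 23.0 and 17.9 CPM. Sums of the other marker lists overlapped between the genotypes. Among tested genes of the 4 lists, 6 of 7 adipocyte and 12 of 13 immediate-early genes did not overlap between genotypes. The same held for 3 of 5 podocyte and 3 of 6 T cell genes, against 32.3% of all genes. CPM are counts scaled to a common library size with the trimmed mean of M-values (TMM). The part of these lists in any value below was not tested.

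Of the 10 genes, 4 were higher and 6 lower in Zbp1-KO by the fitted log2 fold change, with a median of −0.03 against −0.01 over all genes tested. None passed an adjusted p under 0.05 in the edgeR quasi-likelihood test, the edgeR exact test or the DESeq2 Wald test. None reached an unadjusted p under 0.05 in any of them. Over all genes tested, the quasi-likelihood test called 0.0134%, and 3.88% had an unadjusted p under 0.05 in it. The adjusted p in the edgeR quasi-likelihood test was 0.999 for each of the 10. The WT and Zbp1-KO values overlapped for all 10, against the background of 32.3% of genes without overlap. In all 10 genes the larger gap between replicates of a genotype exceeded the difference between the genotype means, which held for 78.1% of all genes tested. The 95% intervals of the fold change lay within 2-fold in either direction for 9 genes, all but Hmox1, and within 1.5-fold for Gpx1, Gpx4, Cat, Sod1, Sod2 and Nfe2l2. Changes inside these intervals were not excluded by 2 libraries per genotype. Larger changes could also go uncalled, so the absence of calls is not evidence of no change. The deleted gene Zbp1, fitted at −3.64 ± 0.89 (log2 ± SE), reached an unadjusted p of 0.00153 in the edgeR quasi-likelihood test. After adjustment this p was 0.999, and Zbp1 was not called. In kidney tissue, moreover, fewer cells of a type and less RNA per cell cannot be told apart.

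**Figure D1:**
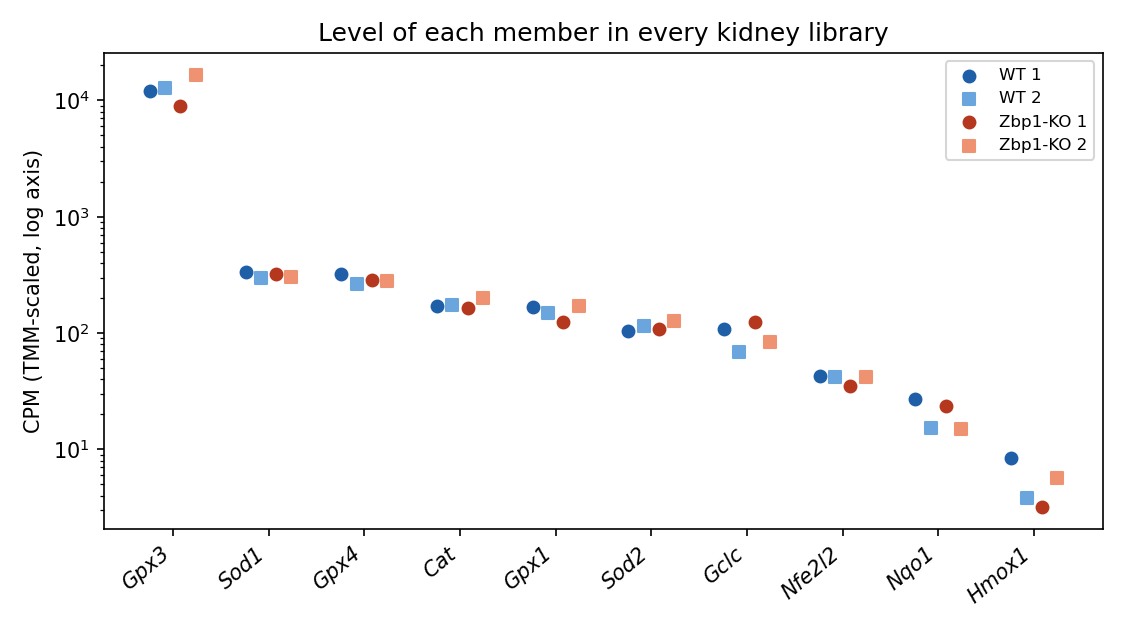
Level of each of the 10 genes in every kidney library, as TMM-scaled CPM on a log axis, with blue symbols for WT and red symbols for Zbp1-KO (circles for replicate 1, squares for replicate 2). The symbols of both genotypes intermingle for every gene, and Gpx3 sits at 8935 to 16675 CPM (not corrected for gene length).

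The 3 glutathione peroxidases are selenoproteins. In each, a single in-frame TGA inside the coding sequence is read as selenocysteine and not as a stop. The codon and its surroundings are shown because it marks the catalytic residue that these 3 peroxidases share. The coding windows below were read from the GENCODE M21 principal transcripts (GRCm38), 5′ to 3′ on the plus strand, with the TGA in capitals.
Gpx1, chr9:108339430-108339474: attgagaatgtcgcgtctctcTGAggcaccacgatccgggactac
Gpx3, chr11:54907235-54907279: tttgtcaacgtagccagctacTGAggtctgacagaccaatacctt
Gpx4, chr10:80054716-80054760: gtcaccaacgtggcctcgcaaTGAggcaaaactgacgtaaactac
In all 3 genes the codon after TGA was ggc or ggt, both of which encode glycine. The selenocysteine is residue 47 of 201 in Gpx1, encoded in exon 1 of 2. It is residue 73 of 226 in Gpx3, in exon 2 of 5, and residue 73 of 197 in the longest principal form of Gpx4, in exon 3 of 7. Among the translated proteins, Gpx1 and Gpx3 were identical at 52.4% of 191 aligned residues, Gpx1 and Gpx4 at 40.6% of 170, and Gpx3 and Gpx4 at 33.5% of 191.

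Gpx3 (ENSMUSG00000018339, chromosome 11, 54902453 to 54910377, plus strand) encodes the secreted plasma peroxidase. Counts were 148957 and 149813 in WT compared with 121177 and 154800 in Zbp1-KO, which is 2.78% and 3.01% of the non-mitochondrial counts in WT but 2.10% and 3.87% in Zbp1-KO. The 95% Wilson intervals, which cover counting error only, were 2.08% to 2.11% for the lowest share and 3.85% to 3.89% for the highest. It ranked first among non-mitochondrial genes in both WT libraries and in Zbp1-KO 2, and second in Zbp1-KO 1. The scaled levels were 11980 and 12813 CPM in WT compared with 8935 and 16675 CPM in Zbp1-KO. The WT libraries were thus close together, while the Zbp1-KO libraries lay on either side of them. The Zbp1-KO replicates differed by 0.90 on the log2 scale and the WT replicates by 0.10. The genotype difference was 0.05 ± 0.26 (log2 fold change ± SE, n = 2 each), with a 95% interval from −0.51 to 0.60 and an adjusted p of 0.999 in the edgeR quasi-likelihood test. This value rested on which Zbp1-KO library was used. Without Zbp1-KO 1 it was 0.42 ± 0.14, and without Zbp1-KO 2 it was −0.48 ± 0.15. These SE assume that the lone Zbp1-KO library varies like the WT libraries, which lay close together.

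Of the 10 proximal tubule markers, 7 were also lowest in Zbp1-KO 1, among them the transporters Slc34a1 and Slc5a2. The phosphate transporter Slc34a1 stood at 923 and 1032 CPM in WT and at 529 and 995 CPM in Zbp1-KO. The glucose transporter Slc5a2 stood at 45.0 and 33.9 CPM in WT and at 8.48 and 44.0 CPM in Zbp1-KO. The 9 proximal tubule markers other than Kap summed to 2044 and 2141 CPM in WT and to 1595 and 2170 CPM in Zbp1-KO. Without Slc34a1 the remaining 8 summed to 1122 and 1109 CPM in WT and to 1066 and 1175 CPM in Zbp1-KO. Lrp2, at 262 and 332 CPM in WT and at 332 and 337 CPM in Zbp1-KO, and Aqp1 were not lowest in that library. Kap, an abundant androgen-regulated transcript of the same tubule, went the other way, with 8821 and 5565 CPM in WT compared with 9402 and 7028 CPM in Zbp1-KO. With Kap included the 10 markers summed to 7705 to 10865 CPM in WT and 9197 to 10998 CPM in Zbp1-KO, and none was at 0. Of the 10 markers, 4 were higher and 6 lower in Zbp1-KO, none passed the adjusted threshold, and their part in the Gpx3 values was not tested.

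Gpx1 (ENSMUSG00000063856, chromosome 9, 108338903 to 108340343, plus strand) encodes the main peroxidase of the cytosol. Its level was 168 and 148 CPM in WT compared with 124 and 172 CPM in Zbp1-KO. As for Gpx3, the lowest value was that of Zbp1-KO 1 and the highest that of Zbp1-KO 2, on either side of both WT values. The log2 fold change was −0.10 ± 0.20 (SE), with a 95% interval from −0.54 to 0.34.

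Gpx4 (ENSMUSG00000075706, chromosome 10, 80047166 to 80056439, plus strand) reduces lipid hydroperoxides within membranes and protects cells from ferroptosis. It stood at 324 and 262 CPM in WT and at 288 and 281 CPM in Zbp1-KO. Both Zbp1-KO values lay between the WT values, and the log2 fold change was −0.04 ± 0.18 (SE), with a 95% interval from −0.45 to 0.36. Its count is uncertain, since the processed pseudogene Gpx4-ps2 is 99.7% identical to a Gpx4 transcript over 733 bases and only uniquely mapped pairs were counted. Gpx4-ps2 had 643 and 509 counts in WT compared with 1037 and 461 counts in Zbp1-KO. This was 13.8% and 14.2% of the sum of gene and copy in WT, against 21.0% and 15.0% in Zbp1-KO, the highest share being that of Zbp1-KO 1. The sum of both was 376 and 306 CPM in WT compared with 364 and 330 CPM in Zbp1-KO, and the log2 ratio of its genotype means was 0.03.

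**Figure D2:**
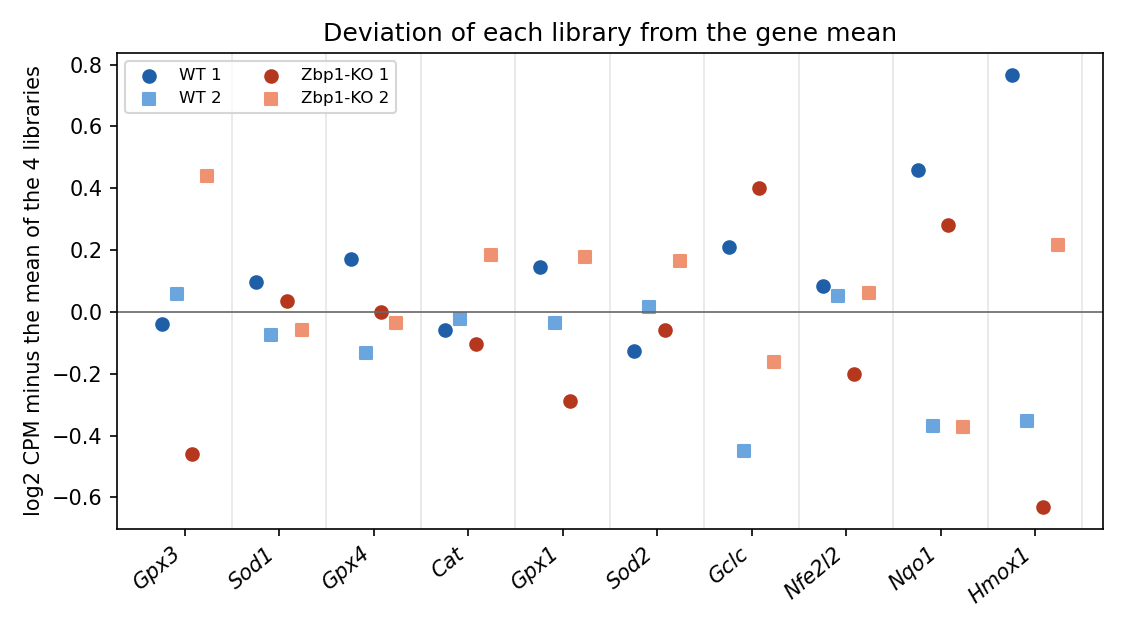
Deviation of each library from the gene mean, as log2 CPM minus the mean of the 4 libraries, with blue symbols for WT and red symbols for Zbp1-KO (circles for replicate 1, squares for replicate 2). Gpx3 and Gpx1 are lowest in Zbp1-KO 1 and highest in Zbp1-KO 2, Nqo1 and Gclc are higher in replicate 1 of each genotype than in replicate 2, and Hmox1 spreads from −0.63 to 0.77.

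Catalase, the superoxide dismutases and Nrf2 itself varied least. Cat (ENSMUSG00000027187, chromosome 2, 103453849 to 103485160, minus strand) encodes the peroxisomal enzyme that splits hydrogen peroxide into water and oxygen. Its level was 170 and 174 CPM in WT compared with 165 and 201 CPM in Zbp1-KO. Both WT values lay between the Zbp1-KO values, and the log2 fold change was 0.09 ± 0.18 (SE), with a 95% interval from −0.31 to 0.49.

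Sod1 (ENSMUSG00000022982, chromosome 16, 90220754 to 90226329, plus strand) encodes the copper and zinc enzyme of the cytosol. It stood at 336 and 298 CPM in WT and at 322 and 302 CPM in Zbp1-KO. The Zbp1-KO values lay between those of WT. With a log2 fold change of −0.02 ± 0.18 (SE) and a 95% interval from −0.41 to 0.36, it had the smallest fitted difference of the 10 genes. A processed pseudogene, Gm8566, is 97.8% identical to a Sod1 transcript over 465 bases but held only 12 to 48 counts per library, against 2800 to 4373 for Sod1.

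Sod2 (ENSMUSG00000006818, chromosome 17, 13006846 to 13040063, plus strand) encodes the manganese enzyme of mitochondria. Its level was 104 and 115 CPM in WT compared with 109 and 128 CPM in Zbp1-KO. The values alternated between the genotypes, from WT 1 as the lowest to Zbp1-KO 2 as the highest. The log2 fold change was 0.11 ± 0.18 (SE), with a 95% interval from −0.29 to 0.51.

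Nfe2l2 (ENSMUSG00000015839, chromosome 2, 75675513 to 75704641, minus strand) encodes Nrf2, which is controlled mainly through protein stability, a property that RNA does not report. Its RNA stood at 42.8 and 41.8 CPM in WT and at 35.1 and 42.1 CPM in Zbp1-KO. Zbp1-KO 1 was the lowest, while Zbp1-KO 2 lay between the WT values. The log2 fold change was −0.13 ± 0.21 (SE), with a 95% interval from −0.58 to 0.32. It was the only one of the 10 genes whose direction held with each library left out in turn, from −0.28 to −0.01.

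Among the 10 genes, the Nrf2 targets Hmox1, Nqo1 and Gclc varied more between replicates than catalase, the superoxide dismutases and Nrf2. The gap of Gpx3 between the Zbp1-KO replicates, 0.90 on the log2 scale, was larger than any replicate gap of Nqo1 or Gclc. Hmox1 (ENSMUSG00000005413, chromosome 8, 75093621 to 75100589, plus strand) encodes the inducible heme oxygenase, which breaks heme down into biliverdin, iron and carbon monoxide. It had the fewest counts of the 10 genes, with 104 and 45 in WT but 43 and 53 in Zbp1-KO. These corresponded to 8.36 and 3.85 CPM in WT compared with 3.17 and 5.71 CPM in Zbp1-KO. WT 1 was the highest and Zbp1-KO 1 the lowest, and Zbp1-KO 2 lay above WT 2 between them. The replicates differed by 1.12 on the log2 scale in WT and by 0.85 in Zbp1-KO. The log2 fold change was −0.47 ± 0.56 (SE), with a 95% interval from −1.70 to 0.76, the widest of the 10. Without WT 1 it was 0.19 ± 0.82 (SE). Erythroid transcripts were high in the same pair of libraries as Hmox1. The 6 erythroid markers summed to 2553 and 820 CPM in WT and to 820 and 2122 CPM in Zbp1-KO, and none of the 6 was at 0. All 6 were lower in Zbp1-KO by the fitted value, none at an unadjusted p under 0.05. Macrophages, which take up spent red cells, were traced by 9 markers, which summed to 386 and 249 CPM in WT and to 361 and 357 CPM in Zbp1-KO. The part of either cell type in the Hmox1 values was not tested.

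Nqo1 (ENSMUSG00000003849, chromosome 8, 107388225 to 107403206, minus strand) encodes a quinone reductase and is a standard readout of Nrf2 activity. It had 334 and 177 counts in WT compared with 322 and 140 counts in Zbp1-KO, or 26.9 and 15.1 CPM in WT compared with 23.7 and 15.1 CPM in Zbp1-KO. Replicate 1 was the higher library in both genotypes. The log2 fold change was −0.11 ± 0.32 (SE), with a 95% interval from −0.82 to 0.60. It was 0.36 ± 0.40 (SE) without WT 1 and −0.48 ± 0.35 (SE) without Zbp1-KO 1.

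Gclc (ENSMUSG00000032350, chromosome 9, 77754535 to 77794485, plus strand) encodes the catalytic subunit of glutamate-cysteine ligase, the rate-limiting enzyme of glutathione synthesis. It stood at 108 and 68.5 CPM in WT and at 123 and 83.6 CPM in Zbp1-KO. Replicate 1 was again the higher library in both genotypes, and the replicate gap was 0.66 on the log2 scale in WT and 0.56 in Zbp1-KO. The log2 fold change was 0.23 ± 0.25 (SE), the largest positive value among the 10 genes, with a 95% interval from −0.32 to 0.78. It was 0.59 ± 0.29 (SE) without WT 1 and −0.09 ± 0.26 (SE) without Zbp1-KO 1. Among the 10 proximal tubule markers, Aqp1, a water channel, and Kap were likewise higher in replicate 1 of both genotypes, while 5 were higher in replicate 2 of both (Lrp2, Slc34a1, Slc22a6, Slc22a8 and Slc13a3). Aqp1 stood at 395 and 261 CPM in WT compared with 390 and 268 CPM in Zbp1-KO. The part of these markers in the Nqo1 and Gclc values was not tested. The labels do not say whether libraries of the same number share a batch.

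**Figure D3:**
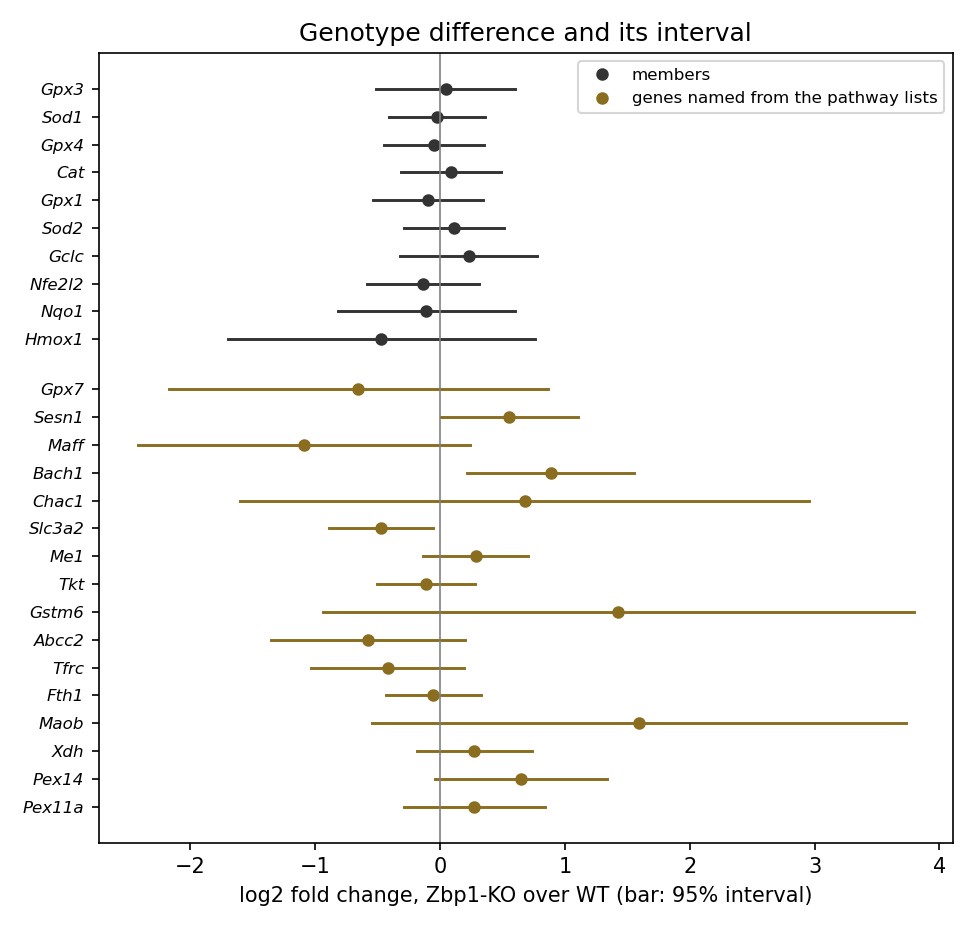
Fitted log2 fold change of Zbp1-KO over WT (points) with 95% intervals (bars) for the 10 genes (black) and for the 16 genes named from the wider antioxidant lists (brown), 2 libraries per genotype. The intervals of all 10 genes include 0, the narrowest being that of Sod1 (−0.41 to 0.36) and the widest that of Hmox1 (−1.70 to 0.76).

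To compare levels between genes, CPM were divided by exon length in kilobases, taken as the union of all annotated exons. On this scale Gpx3 stood at 6950 ± 1758 CPM per kilobase (SD over the 4 libraries). Gpx4 followed with 167 ± 14.9, Gpx1 with 106 ± 15.0, Sod1 with 79.3 ± 4.51 and Cat with 68.0 ± 6.22. Lower levels were those of Gclc with 25.5 ± 6.52, Nqo1 with 13.0 ± 3.88, Sod2 with 11.4 ± 1.01, Nfe2l2 with 10.7 ± 0.95 and Hmox1 with 3.01 ± 1.33. The secreted peroxidase was therefore far above the intracellular enzymes in every library, and the regulator Nfe2l2 stood near the bottom. Neighbours whose ranges over the libraries overlapped were Sod1 and Cat, Nqo1 and Sod2, and Sod2 and Nfe2l2. The order depended on the length used. With the longest transcript of each gene, 7 of the 10 kept their rank, and Sod2 with 19.5 ± 1.72 and Nfe2l2 with 16.3 ± 1.45 CPM per kilobase stood above Nqo1. On that length the ranges of Nfe2l2 and Nqo1 overlapped, as did those of Sod1 and Cat and of Gclc and Sod2. The place of Sod1 changed most. Its exon union is 3970 bases but its principal transcript only 641 bases, and with principal transcripts, a length chosen after seeing the data, Sod1 ranked second with 491 ± 27.9 CPM per kilobase, above Gpx4 with 301 ± 26.8 and Gpx1 with 143 ± 20.2.

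The promoters were searched for the core of the antioxidant response element, TGACNNNGC, on both strands. RefSeq windows of 300 bases (GRCm38.p6, from 250 bases before to 50 bases after the start site) were matched for 8 of the 10 genes, all but Hmox1 and Gclc, which were not searched. The core was found in 2 of these 8 genes, Nfe2l2 and Sod1, and in 3781 of all 27018 genes with a promoter (14.0%), or 4071 of 32841 promoters (12.4%). Both matches are shown with their surroundings, on the strand of the gene, with the matched bases in capitals.
Nfe2l2, chr2:75704865-75704913, minus strand: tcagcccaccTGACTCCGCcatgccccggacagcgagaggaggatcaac
Sod1, chr16:90220676-90220744, plus strand: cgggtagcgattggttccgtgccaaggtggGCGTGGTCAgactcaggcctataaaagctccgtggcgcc
The centre of the match lay 236 bases before the start site in Nfe2l2. In Sod1 it lay 52 bases before the start site, on the opposite strand, where it reads TGACCACGC. Neither match was followed by A, a longer form of the motif that 3.04% of all promoters held. Such matches describe letters and not binding. Elements further from the start site than these windows reach were not searched, so a gene without a match may still hold one.

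Beyond the 10 genes, 9 lists of related genes were read from the same fit, with 134 genes in all, 122 of which passed the filter on low counts. None was called in the edgeR quasi-likelihood test, the edgeR exact test or the DESeq2 Wald test, against a background of 0.0134%. Among the 122 genes, 69 were higher and 53 lower in Zbp1-KO, with a median log2 fold change of 0.05. Both Zbp1-KO values lay to 1 side of both WT values for 35 genes (28.7%), against 32.3% of all genes. An unadjusted p under 0.05 was reached by 3 genes in the edgeR quasi-likelihood test (2.46%), against 3.88% of all genes, and by 2 genes in each of the other tests. The 16 genes given below with values were named by a rule of size and non-overlap, up to 2 per list.

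**Figure D4:**
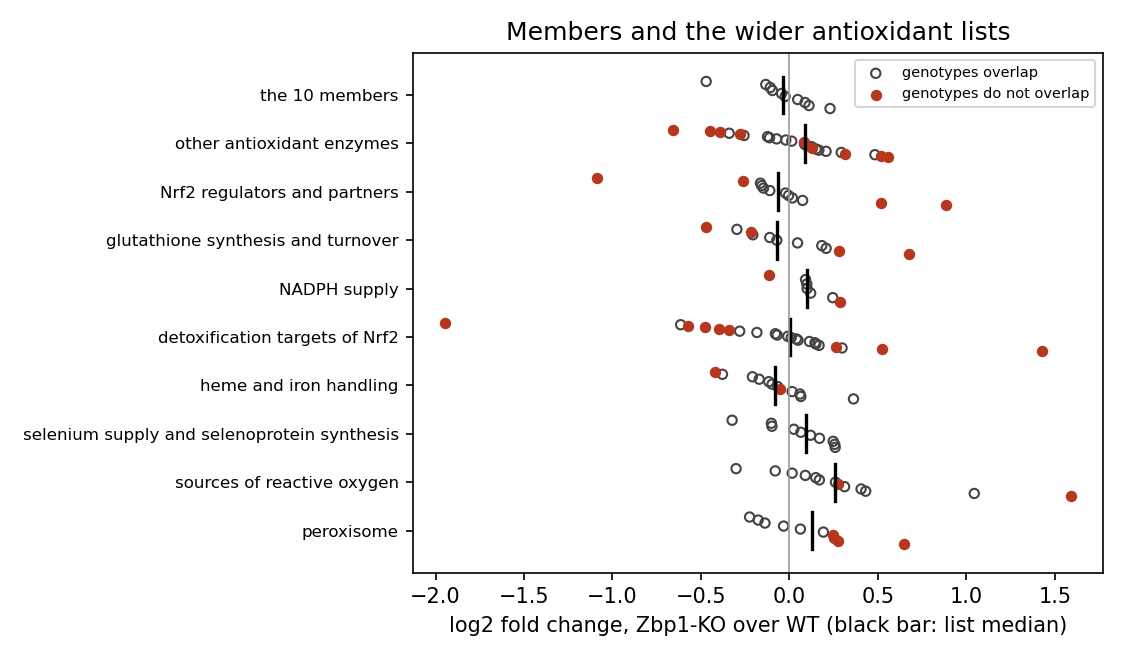
Fitted log2 fold change of Zbp1-KO over WT for the 10 genes and for the tested genes of each of the 9 lists, 1 symbol per gene, with black bars for list medians. Red symbols mark genes whose WT and Zbp1-KO values do not overlap, and list medians lie between −0.08 and 0.26. The leftmost point, Ugt1a6a, had 0 counts in Zbp1-KO 1, so its fitted value depends on the prior count.

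Other antioxidant enzymes, among them peroxiredoxins, thioredoxins and their reductases, had 15 genes higher and 10 lower of 25 tested, with a median log2 fold change of 0.09. Sesn1, a p53-inducible sestrin, lay higher in both Zbp1-KO libraries, with 15.9 and 15.1 CPM in WT compared with 23.7 and 22.0 CPM in Zbp1-KO. The fitted difference was 0.56 ± 0.25 (log2 ± SE), with an unadjusted p of 0.0466 and an edgeR adjusted p of 0.999. Gpx7, a glutathione peroxidase of the endoplasmic reticulum that lacks selenocysteine, lay lower in both, with 3.62 and 3.76 CPM in WT compared with 3.02 and 1.62 CPM in Zbp1-KO (log2 fold change −0.66 ± 0.70). The 10 genes of selenium supply and selenoprotein synthesis, which the selenium-containing peroxidases depend on, all overlapped between genotypes, where 32.3% of all genes did not, with a median log2 fold change of 0.09.

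Among the regulators and partners of Nrf2, 4 genes were higher and 8 lower of 12 tested, with a median of −0.07. Bach1 encodes a repressor that competes with Nrf2 for antioxidant response elements, at Hmox1 above all, until heme releases it. It stood at 8.69 and 8.64 CPM in WT and at 17.3 and 14.8 CPM in Zbp1-KO. Both Zbp1-KO values were above both WT values, and the log2 fold change was 0.89 ± 0.31 (SE), with an unadjusted p of 0.0137 and an edgeR adjusted p of 0.999. Maff, a small Maf protein that pairs with both factors, stood at 5.31 and 5.82 CPM in WT and at 3.54 and 1.62 CPM in Zbp1-KO. Zbp1-KO values lay below those of WT, with a log2 fold change of −1.09 ± 0.61 (SE). Keap1, the inhibitor of Nrf2, overlapped between genotypes, with 31.4 and 21.3 CPM in WT compared with 21.4 and 26.0 CPM in Zbp1-KO.

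Glutathione synthesis and turnover had 5 genes higher and 6 lower of 11 tested, with a median of −0.07. Slc3a2, the heavy chain of the cystine transporter and of other amino acid transporters, lay lower in both Zbp1-KO libraries, with 61.7 and 57.8 CPM in WT compared with 43.9 and 42.1 CPM in Zbp1-KO. The fitted difference was −0.47 ± 0.19 (log2 ± SE), with an unadjusted p of 0.0296 and an edgeR adjusted p of 0.999. The light chain Slc7a11 was near 0 in all libraries and was not tested. Gclm, the modifier subunit that pairs with Gclc, stood at 111 and 98.7 CPM in WT and at 86.2 and 93.8 CPM in Zbp1-KO, with a log2 fold change of −0.22 ± 0.18 (SE). Chac1, which degrades glutathione, had only 12 to 21 counts per library and a log2 fold change of 0.68 ± 1.04 (SE).

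NADPH, the source of electrons for glutathione reduction, is supplied by a list of which 6 genes were higher and 1 lower of 7 tested, with a median of 0.10. Malic enzyme Me1 stood at 41.3 and 42.9 CPM in WT and at 51.9 and 50.6 CPM in Zbp1-KO, with a log2 fold change of 0.28 ± 0.19 (SE). Transketolase (Tkt) stood at 99.6 and 95.8 CPM in WT and at 86.3 and 94.5 CPM in Zbp1-KO, with −0.11 ± 0.18 (SE). Both were named for not overlapping between genotypes, which was so for 2 of the 7 genes (28.6%), against 32.3% of all genes.

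Detoxification targets of Nrf2, mostly glutathione S-transferases and efflux pumps, were split evenly, with 11 higher and 11 lower of 22 tested and a median of 0.00. The efflux pump Abcc2 stood at 24.4 and 24.7 CPM in WT and at 9.66 and 23.7 CPM in Zbp1-KO. As for Gpx3 and Slc34a1, Zbp1-KO 1 was the low library, and the log2 fold change was −0.57 ± 0.36 (SE). Gstm6 had 4 to 38 counts per library and a log2 fold change of 1.43 ± 1.08 (SE). Heme and iron handling had 4 genes higher and 8 lower of 12 tested, with a median of −0.08. Ferritin heavy chain (Fth1), an iron store and Nrf2 target, was among the steadiest genes of the lists, with 1365 and 1384 CPM in WT compared with 1286 and 1363 CPM in Zbp1-KO (log2 fold change −0.05 ± 0.17). The transferrin receptor Tfrc stood at 17.3 and 17.9 CPM in WT and at 14.6 and 11.6 CPM in Zbp1-KO, with −0.42 ± 0.28 (SE).

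Sources of reactive oxygen had 11 genes higher and 2 lower of 13 tested, with a median of 0.26, the largest of the 9 lists, and 2 of the 13 (15.4%) did not overlap between genotypes, against 32.3% of all genes. Xanthine dehydrogenase (Xdh) stood at 28.6 and 31.5 CPM in WT and at 35.1 and 37.6 CPM in Zbp1-KO, with a log2 fold change of 0.27 ± 0.21 (SE). Monoamine oxidase Maob had 8 to 40 counts per library and a log2 fold change of 1.59 ± 0.98 (SE). Nox4, the main NADPH oxidase of the kidney, stood at 32.1 and 41.0 CPM in WT and at 25.7 and 43.6 CPM in Zbp1-KO, with the lowest and the highest value both in Zbp1-KO. The phagocyte oxidase subunit Cybb stood at 7.24 and 12.0 CPM in WT and at 13.6 and 9.26 CPM in Zbp1-KO. Peroxisome genes, which build the organelle that holds catalase, had 6 higher and 4 lower of 10 tested, with a median of 0.13. The docking protein Pex14 stood at 10.9 and 8.04 CPM in WT and at 14.4 and 15.3 CPM in Zbp1-KO, with a log2 fold change of 0.65 ± 0.32 (SE). Pex11a, which divides peroxisomes, stood at 19.3 and 15.5 CPM in WT and at 19.8 and 22.4 CPM in Zbp1-KO, with 0.28 ± 0.26 (SE). Keap1, Slc7a11, Gclm, Nox4, Cybb and the proximal tubule markers named above were chosen after their values had been seen.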

How the data were processed

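Uniquely mapped read pairs per Ensembl gene were deposited by the authors as raw counts, 1 table per library, after trimming with Trimmomatic. The submitters' processing notes name HISAT2, featureCounts and the build mm10. Versions, annotation release and strand setting were not given in the sources used here. Of the 54532 IDs, 54495 matched GENCODE M21 (GRCm38). Groups came from the sample titles. Nothing states that replicates were separate animals, so p-values measure the spread between these libraries.

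The count matrix was fitted with genotype as the only term by the two-sided quasi-likelihood test of edgeR 4.0.16 under R 4.3.3, after filterByExpr (minimum count 10, minimum total 15) and TMM scaling, with Benjamini-Hochberg adjustment over 14908 genes and a threshold of 0.05. The test was run on simulated data first. Positive log2 fold changes mean higher in Zbp1-KO, and SE was obtained as the size of the log2 fold change over the square root of F. A count of 0 allows up to 3 counts, or 0.221 to 0.323 CPM. Copies were searched with blastn 2.17.0 (at least 95% identity over 300 bases), and coding sequences were translated and aligned with Biopython 1.88. DESeq2 1.42.0 was an alternative.

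The 10 genes and all lists were chosen with earlier results of these data known. Named genes were the 10, Zbp1, copies of the 10, and from each list the called genes and up to 2 others with the largest absolute log2 fold change among genes of at least 1 CPM on average whose genotypes did not overlap.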

Additional observations from a re-analysis of the deposited data

How the results depend on the processing

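None of the 10 genes and none of the 122 list genes was called under any alternative: other scalings, other filters, the edgeR exact test, the DESeq2 Wald test, the replicate block, without mitochondrially encoded genes, or with any 1 library left out. Over all genes, the count of 2 calls became 41 with all genes of at least 1 count (14 higher and 27 lower), 14 with the exact test, 7 with DESeq2, 11 with the replicate block, 4 without mitochondrially encoded genes, and 0 to 37 with 1 library left out. Calls were mostly lower without WT 2 (5 higher and 15 lower) and without Zbp1-KO 2 (9 and 28). A fit without 1 library leaves a lone library that is assumed to vary like the others. Over all genes tested, the deviations of libraries with the same replicate number were nearly uncorrelated (−0.0059). This single correlation does not address subsets of genes, and Nqo1 and Gclc were higher in replicate 1 of both genotypes. The replicate block turned the log2 fold change of Gpx3 to −0.021 and led to no call among the 10 genes or the list genes.

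With 1 library left out in turn, the log2 fold change ran from −0.35 to 0.11 for Gpx1 (positive without Zbp1-KO 1), from −0.48 to 0.42 for Gpx3 (negative without WT 1 or Zbp1-KO 2), and from −0.19 to 0.11 for Gpx4 (positive without WT 1). It ran from −0.070 to 0.219 for Cat and from −0.013 to 0.212 for Sod2 (both negative without Zbp1-KO 2), and from −0.114 to 0.057 for Sod1 (positive without WT 1 or Zbp1-KO 2). It ran from −0.95 to 0.19 for Hmox1 (positive without WT 1), from −0.48 to 0.36 for Nqo1 (positive without WT 1 or Zbp1-KO 2), and from −0.086 to 0.588 for Gclc (negative without WT 2 or Zbp1-KO 1). The direction of Nfe2l2 held under all 12 alternatives. That of the 16 named list genes did too, but their choice by non-overlap fixes it when 1 library is left out. With longest transcript lengths, 7 of the 10 genes kept their rank by level, and with principal transcript lengths, chosen after seeing the data, 4 did. With A required after the motif, 0 of the 8 genes searched held it. Depth limits Hmox1 most, with 43 to 104 counts per library.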

Other observations

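Nnt, which encodes the mitochondrial enzyme that makes NADPH from NADH, had 2, 0, 0 and 0 counts in WT 1, WT 2, Zbp1-KO 1 and Zbp1-KO 2, and was singled out after its values had been seen. GENCODE M21 holds a second gene model of the same symbol on the same strand of chromosome 13 (119335528 to 119408952, inside 119335448 to 119408997), with 0 counts in every library. C57BL/6J mice are known to carry a deletion within Nnt. Counts lost to that deletion and counts lost because read pairs could not be assigned to 1 of the 2 models cannot be told apart here.

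Haptoglobin (Hp), the plasma protein that binds free hemoglobin, had the same order of libraries within genotypes as Hmox1 and the erythroid transcripts. It stood at 17.8 and 5.82 CPM in WT and at 5.90 and 15.3 CPM in Zbp1-KO, with a log2 fold change of −0.17 ± 0.53 (SE) and an adjusted p of 0.999 in the edgeR quasi-likelihood test. It was chosen after its values had been seen, and no relation between these genes was tested over 4 libraries.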
